A study of Mus musculus with 2 samples.

Results

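The vacuolar proton pump and the cathepsins were described here as 41 genes of the 20003 listed. They were taken by symbol alone: 24 rows begin with Atp6v0, Atp6v1 or Atp6ap, and 17 rows are Cts followed by a single letter. Atp6v1e2 and Ctsj, which the same families hold, were not analysed here. The data are 2 RNA-seq libraries of cells labelled RAW 264.7, a mouse macrophage line. The library labelled M2+GANT61, below the GANT61 library, came from cells given GANT61 at 10 µM, an inhibitor of the GLI transcription factors that end the Hedgehog pathway. The library labelled M2+DMSO, below the DMSO library, came from cells given the solvent alone. Per the labels, both received M-CSF (20 ng/mL) together with the cytokine IL-4 (10 ng/mL), and the agent went in 4 h before IL-4. The labels give 15 min with IL-4 in one text and 24 h in another. Each group is 1 library, so every difference below is between 2 libraries and not a tested effect of the inhibitor.

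The vacuolar proton pump, or V-ATPase, burns ATP to acidify lysosomes and endosomes. Its V1 sector sits in the cytosol and hydrolyses ATP, its V0 sector lies in the membrane and carries the protons, and stalk subunits join the sectors. Several places in the complex, here called slots, can be filled by alternative isoforms: a widely expressed form, or forms known from kidney, bone, brain or epithelium. In osteoclasts, bone-resorbing relatives of macrophages, the pump also acidifies the space outside the cell. Cathepsins are proteases, most of which work in the acid that the pump makes, and macrophages are rich in them.

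Estimated counts over all listed genes, called reads below, summed to 61632784 (DMSO) and 57705874 (GANT61). Shares of all reads are shares of these sums. Levels are counts scaled to library size (CPM) with TMM normalization factors, and ratios are GANT61 over DMSO with a 95% exact interval that covers counting error only. A gene was called higher at a ratio of at least 1.5, or lower at the inverse, where the interval excluded 1 and the mean was at least 1 CPM. Of 13939 genes at that mean, 14.1% were called higher and 10.3% lower, with a median log2 ratio of -0.01. Macrophage markers were present, with 16 of 16 at 10 CPM or more in both libraries, and their summed level was 4315 CPM in the DMSO and 8637 CPM in the GANT61 library. Markers of other cell types were present too, against the labelled cell line. Adipocyte markers summed to 6004 and 929 CPM, fibroblast markers to 9150 and 9345 CPM, and epithelial markers to 3636 and 3212 CPM. Of the 8 epithelial markers, Krt5 was called higher (102 and 319 CPM), Krt18 lower (946 and 551 CPM) and 6 neither. In such mixed RNA, fewer cells of a type and less RNA per cell cannot be told apart.

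Ubiquitous pump subunits were all somewhat higher in the GANT61 library, whereas tissue-restricted isoforms differed in both directions. Of 16 ubiquitous and accessory subunits, 6 were called higher and 0 lower, and all 16 ratios were above 1, with a median log2 ratio of 0.46 and a range of 0.06 to 1.02. Of 7 tissue-restricted isoforms, 6 reached the mean of 1 CPM, of which 2 were called higher and 2 lower. Their log2 ratios ran from -2.71 to 2.23, with a median of -0.42, a range wider on both sides than that of the ubiquitous subunits. The a3 form Tcirg1, whose symbol lies outside the family prefixes, is not among the 7 and was called higher (ratio 1.66, 1.60 to 1.71). Over all 24 pump rows, 8 were called higher, beside 14.1% of all genes, and 2 lower, beside 10.3%. Pump reads made up 0.1996% of all reads in the DMSO library (exact 95% interval 0.1985 to 0.2007) and 0.274% in the GANT61 library (0.2727 to 0.2754).

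**Figure D1:**
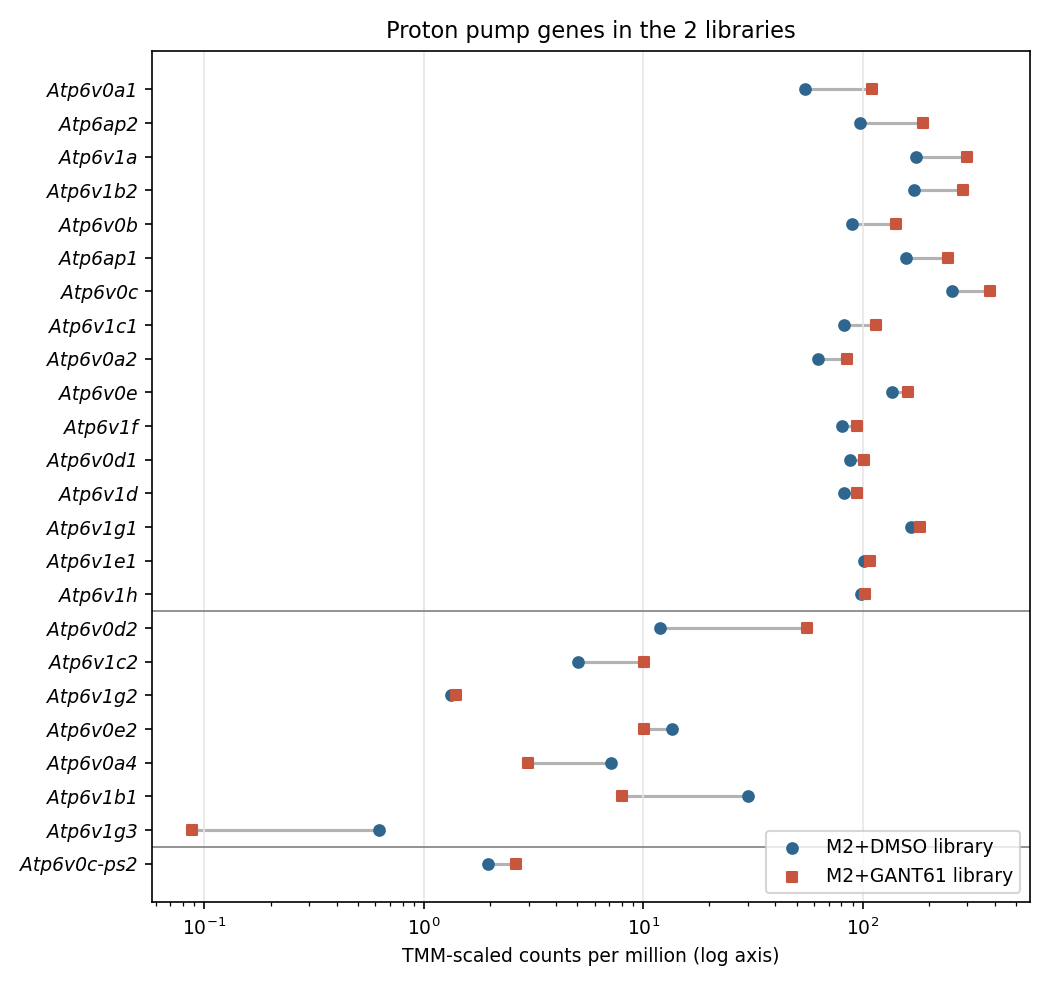
Level of each pump gene in TMM-scaled CPM (log axis), 1 point per library, with ubiquitous and accessory subunits above the upper line, tissue-restricted isoforms between the lines and the pseudogene row below. The ubiquitous subunits lie from 54.5 CPM upward in both libraries, while the restricted isoforms shown lie at 55.8 CPM or less. Tcirg1 is not drawn.

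In the V1 head, the subunits that bind and split ATP were called higher. Atp6v1a, the catalytic A subunit, was at 174 CPM in the DMSO library and 299 CPM in the GANT61 library (ratio 1.71, 1.67 to 1.76). Atp6v1b2, the widely expressed B subunit, was at 171 and 286 CPM (ratio 1.67, 1.63 to 1.71). These ratios are nearly equal, and their intervals overlap. The C subunit Atp6v1c1, which takes part in the reversible joining of the sectors, was at 81.8 and 115 CPM (ratio 1.40, 1.35 to 1.45), below the threshold. The stalk and regulatory subunits of V1 differed less. Atp6v1d and Atp6v1f, of the rotating central stalk, had ratios of 1.14 (1.09 to 1.18) and 1.17 (1.13 to 1.22). Atp6v1e1 and Atp6v1g1, which pair in the outer stalks, had ratios of 1.07 (1.03 to 1.11) and 1.10 (1.07 to 1.13). Atp6v1h, which regulates activity, was at 97.9 and 102 CPM (ratio 1.04, 1.01 to 1.08). Exons of Atp6v1e1 and Atp6v1h overlap Slc25a18 and Rgs20 on the other strand. None of these 5 intervals reached those of the A and B subunits. Long and short genes differed slightly as a whole in these libraries, and with the trend in gene length removed the 5 ratios ran from 1.10 to 1.27, still below 1.66 for Atp6v1a and 1.68 for Atp6v1b2.

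In the membrane sector V0, Atp6v0a1 and Atp6v0b were called higher among the 6 ubiquitous subunits. Atp6v0c, the main ring proteolipid and the most abundant pump gene in CPM, was at 254 and 380 CPM. Its ratio of 1.49 (1.46 to 1.53) lay just under the threshold, and was 1.58 with the length trend removed. Atp6v0b, the second ring proteolipid, was at 89.1 and 142 CPM (ratio 1.60, 1.54 to 1.65). Atp6v0a1, a form of the a subunit that lines the proton path, was at 54.5 and 110 CPM (ratio 2.02, 1.94 to 2.11). Its interval overlapped that of the accessory subunit Atp6ap2, which had the larger ratio with the length trend removed, 1.99 against 1.96. Atp6v0a2, the a form known from the Golgi and endosomes, had 62.6 and 85.0 CPM (ratio 1.36, 1.302 to 1.417). The remaining V0 subunits were near the V1 stalk: Atp6v0d1, which links V0 to the central stalk, had a ratio of 1.15 (1.11 to 1.20), and the small subunit Atp6v0e of 1.19 (1.15 to 1.22).

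Both accessory subunits were called higher. Atp6ap2, also known as the prorenin receptor, was at 97.1 and 189 CPM (ratio 1.94, 1.88 to 2.01). Atp6ap1, which helps assemble V0, was at 158 and 244 CPM (ratio 1.55, 1.51 to 1.59), just above the threshold. With scaling by total counts it was 1.499 and lost the call. The row Atp6v0c-ps2 is a processed pseudogene of the proteolipid on chromosome 6 at 37806086 to 37806550 (mm10). It had 123 and 149 reads (ratio 1.33, 1.04 to 1.71), and its reads may be shared with Atp6v0c.

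**Figure D2:**
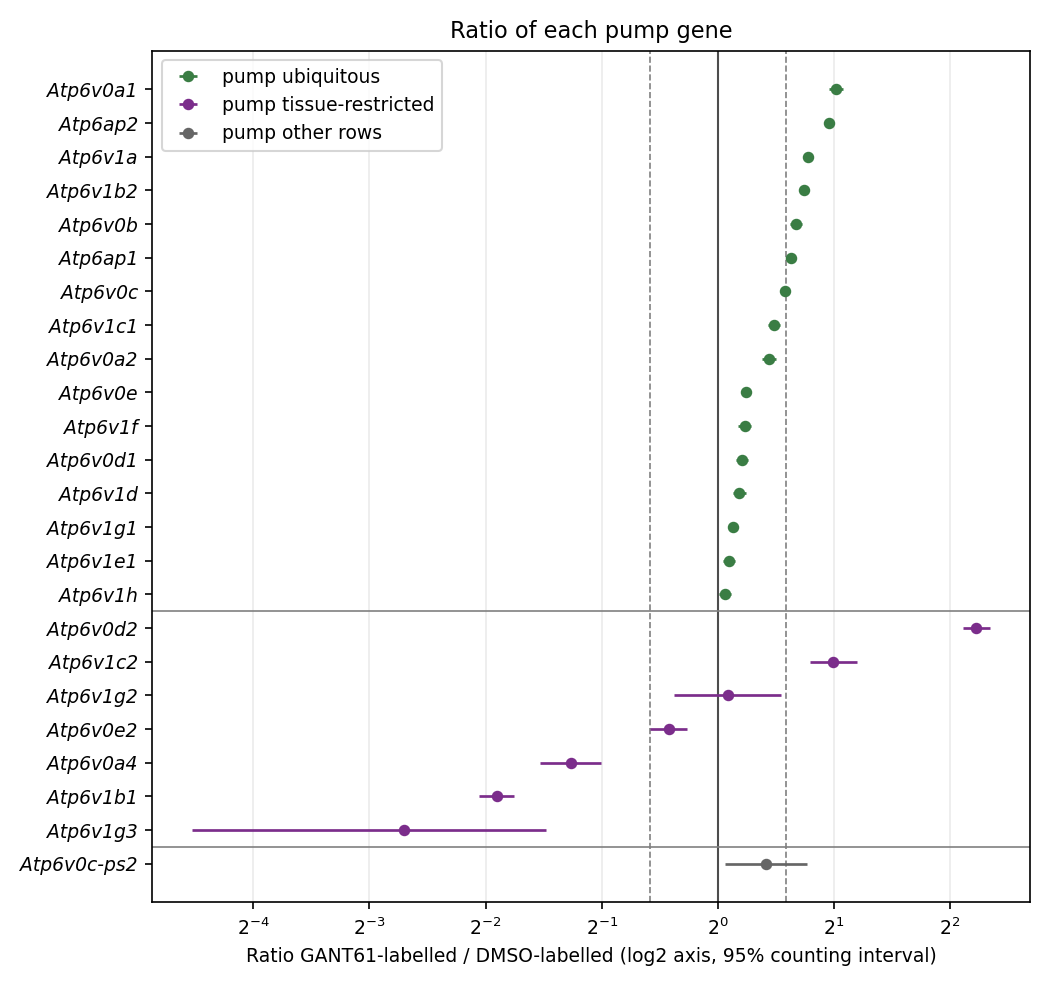
Ratio of the GANT61 to the DMSO library for each pump gene (log2 axis), with bars for the 95% counting interval, a solid line at 1 and dashed lines at the thresholds of 1.5 and its inverse. Ubiquitous subunits lie between 1.04 and 2.02, and restricted isoforms between 0.153 and 4.68.

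Many lysosomal genes carry an E-box, the letters CACGTG, which MiT-family factors such as TFEB can bind. Promoters are shown only for those called ubiquitous subunits in whose window an E-box was found. RefSeq windows of 300 bases (GRCm38.p6), from 250 bases before a RefSeq start to 50 after, matched 30 of the 41 genes. Both strands were searched. The E-box occurred in 4 of 11 matched ubiquitous pump genes, 36.4%, in 0 of 6 restricted isoforms, and in 8.09% of the 27025 genes with a window. The longer letters TCACGTG, which contain the E-box, were found in 4 of 11, beside 4.29% of all genes. The window of Atp6v0b is chr4:117887280-117887579 and that of Atp6v1a is chr16:44139210-44139509, both on the minus strand, with E-boxes in capitals. Of the other pump genes with a match, Atp6v0d1 and Atp6v0e, neither was called. For the called Atp6v0a1, Atp6ap2, Atp6v1b2 and Atp6ap1, either no E-box was found or no window was matched.
Atp6v0b: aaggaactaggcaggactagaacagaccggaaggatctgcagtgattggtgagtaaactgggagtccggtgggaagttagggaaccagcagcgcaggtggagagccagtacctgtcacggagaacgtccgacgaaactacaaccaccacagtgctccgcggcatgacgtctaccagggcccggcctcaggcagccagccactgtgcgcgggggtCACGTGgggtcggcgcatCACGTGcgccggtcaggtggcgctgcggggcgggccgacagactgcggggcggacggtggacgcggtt
Atp6v1a: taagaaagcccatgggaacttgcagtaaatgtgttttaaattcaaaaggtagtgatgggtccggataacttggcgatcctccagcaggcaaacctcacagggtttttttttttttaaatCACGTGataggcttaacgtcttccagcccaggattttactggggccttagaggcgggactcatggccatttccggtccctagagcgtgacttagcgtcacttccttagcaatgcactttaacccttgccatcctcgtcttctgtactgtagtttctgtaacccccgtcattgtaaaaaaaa

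The first sequence holds 2 E-boxes close to the RefSeq start and the second holds 1, further upstream. In GENCODE, Atp6v1a begins at 44139705 on the minus strand, upstream of the window shown. Atp6v0e begins at 26663231 on the plus strand, likewise upstream of its window with the E-box. Among the 4 pump genes with an E-box, ratios ran from 1.15 (Atp6v0d1) to 1.71 (Atp6v1a), with 2 called and 2 not. The letters GACCACCCA, a known GLI site, were in 0 of the 30 matched genes and in 0.289% of all genes, on either strand. A match of letters is a description of the window, and binding was not measured.

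Among the restricted isoforms, Atp6v0d2 was the most different toward the GANT61 library. Atp6v0d2, the d form known from osteoclasts, macrophages and kidney, spans bases 19876841 to 19922605 of chromosome 4 (minus strand, mm10). It had 746 reads in the DMSO library and 3169 in the GANT61 library, or 11.9 and 55.8 CPM (ratio 4.68, 4.32 to 5.07). Its ubiquitous counterpart Atp6v0d1 was at 87.9 and 101 CPM, a far smaller difference. On the deposited RPKM scale, which corrects for gene length, Atp6v0d2 made up 8.20% of the d slot in the DMSO library and 26.6% in the GANT61 library. Slot shares here and below are shares of messenger RNA in mixed RNA. Which isoform sits in the assembled pump was not measured. The ratio of d2 to d1 differed 4.05-fold (3.71 to 4.43) between the libraries, a value that needs no scaling between them. Atp6v1c2, a C form known from epithelium, lung and kidney, had 317 and 574 reads, or 5.07 and 10.1 CPM (ratio 1.99, 1.74 to 2.29). Its share of the C slot was 7.52% and 10.4%, and the ratio of C2 to C1 differed 1.42-fold (1.23 to 1.65). Its exons overlap those of Pdia6 on the other strand, and strand use in counting is not given in the sources used here.

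The restricted B and a forms, Atp6v1b1 and Atp6v0a4, were called lower in the GANT61 library. Both are known from the acid-secreting intercalated cells of the kidney, an organ that also expresses Atp6v0d2 and Atp6v1c2, which were called higher. Atp6v1b1 lies on chromosome 6 at 83742990 to 83758855, plus strand. It had 1875 and 455 reads, or 29.96 and 8.01 CPM (ratio 0.267, 0.241 to 0.296). Its share of the B slot on the RPKM scale was 19.5% in the DMSO library and 3.75% in the GANT61 library, while Atp6v1b2 was called higher. The ratio of B1 to B2 was thus 0.160 times as large (0.144 to 0.178). Atp6v0a4, on chromosome 6 at 38048483 to 38124586, had 448 and 169 reads, or 7.16 and 2.97 CPM (ratio 0.416, 0.346 to 0.497). It overlaps exons of Tmem213 and D630045J12Rik. Atp6v1g3, a G form of the same cells, had 39 and 5 reads (ratio 0.153, 0.0434 to 0.358) and was not called, since its mean was below 1 CPM. It made up 0.216% and 0.0278% of the G slot, so of the 3 forms only Atp6v1b1 in the DMSO library was a sizeable part of its slot.

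**Figure D3:**
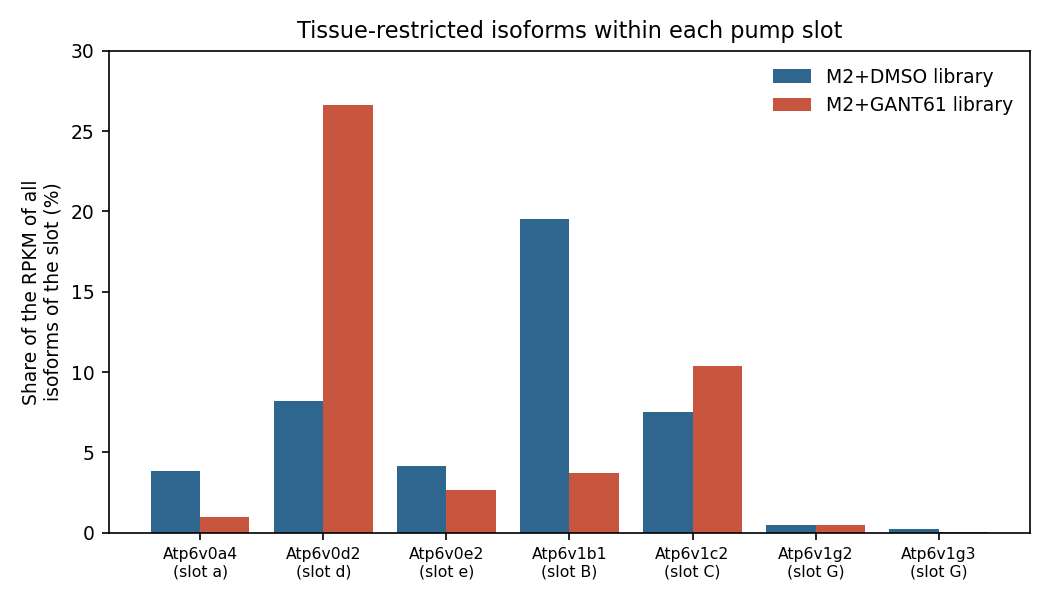
Share of each tissue-restricted isoform in the summed RPKM of all listed isoforms of its slot (bars from 0), in the DMSO and the GANT61 library; slot a includes Tcirg1. Atp6v0d2 gave 8.20% and 26.6% of the RPKM of the d slot, and Atp6v1b1 19.5% and 3.75% of that of the B slot.

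The 2 isoforms known from brain were not called. Atp6v0e2 had 845 and 572 reads, or 13.5 and 10.1 CPM (ratio 0.746, 0.669 to 0.830), and its share of the e slot was 4.15% and 2.65%. Atp6v1g2 had 83 and 80 reads (ratio 1.06, 0.771 to 1.46), and made up 0.476% and 0.464% of the G slot, where Atp6v1g1 took 99.3% and 99.5%. Its exons overlap Nfkbil1 on the other strand. Of 7 neuron markers, 1 was at 10 CPM or more in both libraries. The 7 summed to 52.5 and 28.3 CPM, of which Map2 gave most (47.8 and 24.0 CPM, ratio 0.502, 0.471 to 0.535).

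The a slot was led in both libraries by Tcirg1, the a3 form needed for bone resorption, whose symbol lies outside the family prefixes. Tcirg1 was at 24.6 RPKM in the DMSO library and 40.6 RPKM in the GANT61 library, 55.0% and 56.2% of the slot. In CPM it was at 103 and 170 (ratio 1.66, 1.60 to 1.71). Atp6v0a1 made up 20.3% and 25.4% of the slot, Atp6v0a2 20.8% and 17.4%, and Atp6v0a4 3.87% and 0.991%. Relative to Atp6v0a1, Tcirg1 was 0.817 times as abundant in the GANT61 library as in the DMSO library (0.775 to 0.861). Both osteoclast-associated forms, a3 and d2, were thus called higher, d2 by far the more.

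Markers of osteoclasts and of intercalated cells were compared in the same way. Of 9 osteoclast markers that are no members here, 7 reached a mean of 1 CPM, of which 6 were called higher and 0 lower. Of all genes, 14.1% and 10.3% were so called. The summed level of the 9 was 335 and 952 CPM, and none was at 0. Most of that sum came from Mmp9 (139 and 595 CPM) and Acp5 (110 and 192 CPM). Dcstamp had 112 and 403 reads, Ocstamp 50 and 364, and Oscar, below the mean of 1 CPM, 6 and 104. Calcr, the calcitonin receptor of mature osteoclasts, had 1 and 10 reads. Of 7 intercalated cell markers, 1 reached the mean of 1 CPM and was called lower: Dmrt2, with 328 and 64 reads (ratio 0.216, 0.162 to 0.282). Foxi1, the factor that specifies these cells, had 70 and 31 reads (ratio 0.492, 0.309 to 0.754), and Slc4a1 60 and 25 reads (ratio 0.464, 0.276 to 0.743). Slc26a4 had 1 and 2 reads, Slc4a9 4 and 4, Hmx2 21 and 24, and Aqp6 0 and 1. The whole list summed to 7.73 and 2.66 CPM. The part of these cell types in the isoform differences was not tested.

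Cathepsins were higher in the GANT61 library almost throughout. Of 17 rows, 13 reached a mean of 1 CPM, of which 10 were called higher and 0 lower, beside 14.1% and 10.3% of all genes. Over the 14 with more than 3 reads in a library, the median log2 ratio was 0.80 and the range was -0.11 to 1.97. Cathepsin reads made up 0.6419% of all reads in the DMSO library (0.6399 to 0.6439) and 1.248% in the GANT61 library (1.245 to 1.251). Their summed level was 6321 and 12669 CPM, a ratio of 2.004. Macrophage markers, with 14 of 16 called higher, 0 lower and a median of 0.94, had a ratio of summed levels of 2.0015. Their part in the cathepsin differences was not tested.

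Ctss and Ctsk, cathepsins typical of antigen-presenting cells and osteoclasts, lie side by side on chromosome 3, with 17423 bases between them (mm10). Ctss trims the invariant chain of MHC class II. It was at 1087 and 2411 CPM (ratio 2.22, 2.20 to 2.24), and was the most abundant cathepsin on the RPKM scale, at 634 and 1400 RPKM. It ranked 97th of all genes by RPKM in the DMSO library and 15th in the GANT61 library. Ctsk, which cleaves collagen in bone, had 6304 and 22380 reads, or 101 and 394 CPM (ratio 3.91, 3.80 to 4.02), the largest among the cathepsins. Its share of the summed cathepsin RPKM was 2.40% and 4.73%, while that of Ctss was 30.1% and 33.7%. The neighbours were both called higher, with intervals far apart. B cell and dendritic cell markers, of other cells that use Ctss, summed to 3996 and 4008 CPM. Most of that sum came from Cd74, which encodes the invariant chain (3161 and 3236 CPM), and the MHC class II gene H2-Ab1 (726 and 626 CPM). Of the 10, 5 had a ratio above 1. Flt3 (ratio 2.69) and Cd22 (2.52) were called higher and 0 lower, beside 14.1% and 10.3% of all genes.

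The broadly expressed cysteine cathepsins differed by graded amounts. Ctsl, an endopeptidase, was at 586 and 1537 CPM (ratio 2.62, 2.59 to 2.65). Ctsc, a dipeptidyl peptidase that activates granule serine proteases, was at 391 and 950 CPM (ratio 2.43, 2.39 to 2.47). Ctsb, which acts as endopeptidase and carboxypeptidase, was at 1921 and 3717 CPM (ratio 1.93, 1.92 to 1.95), and alone took 0.1951% and 0.366% of all reads. The aminopeptidase Ctsh and the carboxypeptidase Ctsz had ratios of 1.75 (1.72 to 1.79) and 1.73 (1.70 to 1.75), with overlapping intervals. Exons of Ctsb and Ctsz overlap Fdft1 and Nelfcd on the other strand, and Ctsl shares its place with a pseudogene model, so part of these reads may belong elsewhere. Ctsf and Ctso stood apart from these 5. Ctsf was at 21.3 and 27.3 CPM (ratio 1.28, 1.19 to 1.38), and Ctso at 65.7 and 61.0 CPM (ratio 0.928, 0.887 to 0.971), the one cathepsin over 3 reads with a ratio below 1.

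Of the cathepsins with other active sites, 3 were called higher. Ctsa, a serine carboxypeptidase that also protects lysosomal sialidase and beta-galactosidase, was at 286 and 578 CPM (ratio 2.02, 1.98 to 2.06). Its exons overlap Pltp and Neurl2 on the other strand. Ctsd, the main aspartic protease of lysosomes, was at 1087 and 1662 CPM (ratio 1.53, 1.51 to 1.54). That lay just above the threshold, was 1.48 with scaling by total counts, and was the smallest ratio among called cathepsins. Its exons are shared with the gene model Gm49369 on the same strand. Ctsd had the second highest RPKM of the family, 450 and 685. Its share of the summed cathepsin RPKM was 21.3% and 16.5%. Ctse, an aspartic protease of gastric epithelium and some immune cells, was at 25.5 and 44.03 CPM (ratio 1.73, 1.62 to 1.84).

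**Figure D4:**
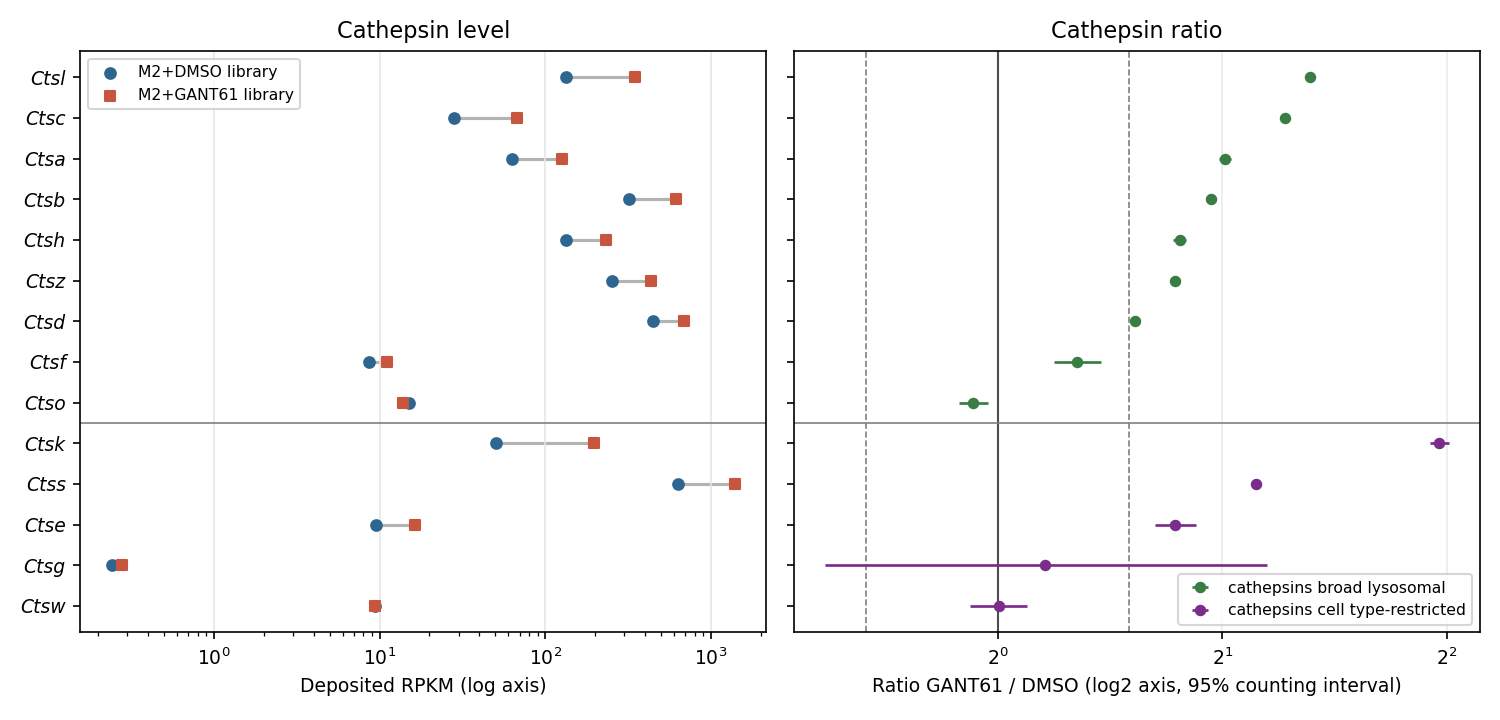
Left, deposited RPKM of each cathepsin with more than 3 reads in a library (log axis), 1 point per library; right, its ratio with the 95% counting interval (log2 axis), with a solid line at 1 and dashed lines at 1.5 and its inverse. Broad lysosomal cathepsins are above the line and cell type-restricted ones below. Ratios run from 0.928 for Ctso to 3.91 for Ctsk, and those of Ctsw and Ctsg have intervals that include 1.

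Cathepsins of cytotoxic and granule-bearing cells were not called. Ctsw, of natural killer and cytotoxic T cells, had 1062 and 968 reads, or 17.0 CPM in each library (ratio 1.004, 0.919 to 1.10). Its exons overlap Fibp on the other strand. Of 11 T and natural killer cell markers, 1 was called higher and 0 lower, beside 14.1% and 10.3% of all genes. They summed to 220 and 248 CPM. Ctsg, the serine protease of neutrophil and mast cell granules, had 19 and 20 reads (ratio 1.16, 0.587 to 2.30), so a difference within that interval was not detectable at this depth. Neutrophil markers summed to 143 and 672 CPM. Of 8, 5 reached a mean of 1 CPM, of which 3 were called higher and 2 lower. The median log2 ratio over all 8, those below that mean included, was -0.71. S100a8, S100a9 and Ltf were the ones called higher, and they gave most of the sum (Ltf alone 93.1 and 403 CPM). Prtn3 and Ngp were called lower. Mast cell markers summed to 96.2 and 122 CPM. The early granule genes Elane, Mpo and Prtn3 had 6 and 3, 39 and 22, and 211 and 81 reads. The placental cathepsins gave no ratio: Ctsm and Ctsq had 0 reads in both libraries and Ctsr had 2 and 0, where a count of 0 allows up to 3 reads, or 0.0479 and 0.0528 CPM.

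An E-box was found in 4 of 7 matched broad lysosomal cathepsin genes, 57.1%, and in 0 of 3 matched cell type-restricted ones, beside 8.09% of all genes. The 3 called cathepsins with a match are shown, with the E-box in capitals. The Ctsa window is chr2:164833523-164833822, plus strand, that of Ctsd chr7:142387778-142388077, minus strand, and that of Ctsl chr13:64370471-64370770, minus strand.
Ctsa: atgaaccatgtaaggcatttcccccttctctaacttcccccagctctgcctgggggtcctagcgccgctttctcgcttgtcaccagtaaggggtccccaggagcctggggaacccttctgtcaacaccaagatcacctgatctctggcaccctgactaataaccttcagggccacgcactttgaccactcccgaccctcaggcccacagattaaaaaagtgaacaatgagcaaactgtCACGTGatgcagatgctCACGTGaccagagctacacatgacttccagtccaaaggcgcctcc
Ctsd: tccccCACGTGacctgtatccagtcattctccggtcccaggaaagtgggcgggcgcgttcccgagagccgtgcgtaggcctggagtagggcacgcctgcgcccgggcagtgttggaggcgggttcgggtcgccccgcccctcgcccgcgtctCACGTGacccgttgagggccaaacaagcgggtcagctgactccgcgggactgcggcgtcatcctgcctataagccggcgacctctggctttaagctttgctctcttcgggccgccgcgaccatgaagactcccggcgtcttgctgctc
Ctsl: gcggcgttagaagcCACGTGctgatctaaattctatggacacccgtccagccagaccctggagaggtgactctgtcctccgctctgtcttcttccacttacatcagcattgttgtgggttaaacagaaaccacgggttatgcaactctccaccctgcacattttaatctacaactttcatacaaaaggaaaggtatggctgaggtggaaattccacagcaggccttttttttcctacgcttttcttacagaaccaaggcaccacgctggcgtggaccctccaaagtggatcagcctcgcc

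Ctsa and Ctsd each hold 2 E-boxes, those of Ctsa astride the RefSeq start, and Ctsl holds 1 near the far end of its window. In GENCODE, Ctsa begins at 164832873 and Ctsl, on the minus strand, at 64370890, both upstream of the windows shown. The fourth gene with a match was Ctsf, which was not called, and the windows of Ctsk, Ctss and Ctsg were searched without a match. The extended letters TCACGTG were found in Ctsa and Ctsd.

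Among other hydrolases and membrane proteins of the lysosome, some were called higher and none of those listed lower. Of 30 other lysosomal hydrolases, 16 were called higher and 0 lower, beside 14.1% and 10.3% of all genes, with a median log2 ratio of 0.64. The largest was Lgmn, legumain, an asparagine-directed protease that processes cathepsins, at 402 and 1230 CPM (ratio 3.06, 3.01 to 3.10). Gla, alpha-galactosidase A, had a ratio of 2.41 (2.27 to 2.55), and the phospholipase Pla2g15 of 2.37 (2.29 to 2.45). Of 13 membrane proteins and activators, 6 were called higher and 0 lower; the median was 0.51. Npc1, which moves cholesterol out of lysosomes, was at 45.4 and 127 CPM (ratio 2.80, 2.68 to 2.93). Slc17a5, which exports sialic acid, had a ratio of 1.96 (1.83 to 2.09), and Psap, the precursor of the saposins, of 1.74 (1.73 to 1.75).

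Genes that assemble or regulate the pump had 5 of 14 called higher and 0 lower, beside 14.1% and 10.3% of all genes, with a median of 0.26. Beside Tcirg1, Dmxl2 had a ratio of 2.18 (1.99 to 2.38) and its partner Wdr7 of 1.60 (1.496 to 1.703); both belong to a complex that helps V1 join V0. Of 6 genes of the mannose 6-phosphate route, which carries hydrolases to lysosomes, 2 were called higher and 1 lower; the median was 0.10. M6pr, the small receptor, had a ratio of 1.53 (1.49 to 1.57), and Nagpa, which uncovers the sugar tag, of 1.76 (1.65 to 1.88). Sort1, sortilin, an alternative sorting receptor, was at 87.3 and 30.3 CPM (ratio 0.347, 0.329 to 0.367).

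Inhibitors of cathepsins included genes with larger ratios than any cathepsin. Of 9, 8 reached the mean of 1 CPM, of which 5 were higher and 0 lower, beside 14.1% and 10.3% of all genes. The median over all 9 was 0.62. Stfa3, a stefin, had 317 and 1453 reads (ratio 5.04, 4.47 to 5.72), which is uncertain because the stefin A genes are near copies. Cst6, cystatin M, which inhibits cathepsin L, had 263 and 1174 reads (ratio 4.91, 4.30 to 5.64). Serpina3g had a ratio of 1.53 (1.505 to 1.565). In summed level the inhibitors were at 1408 and 1787 CPM, a ratio of 1.27, beside 2.004 for the cathepsins.

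**Figure D5:**
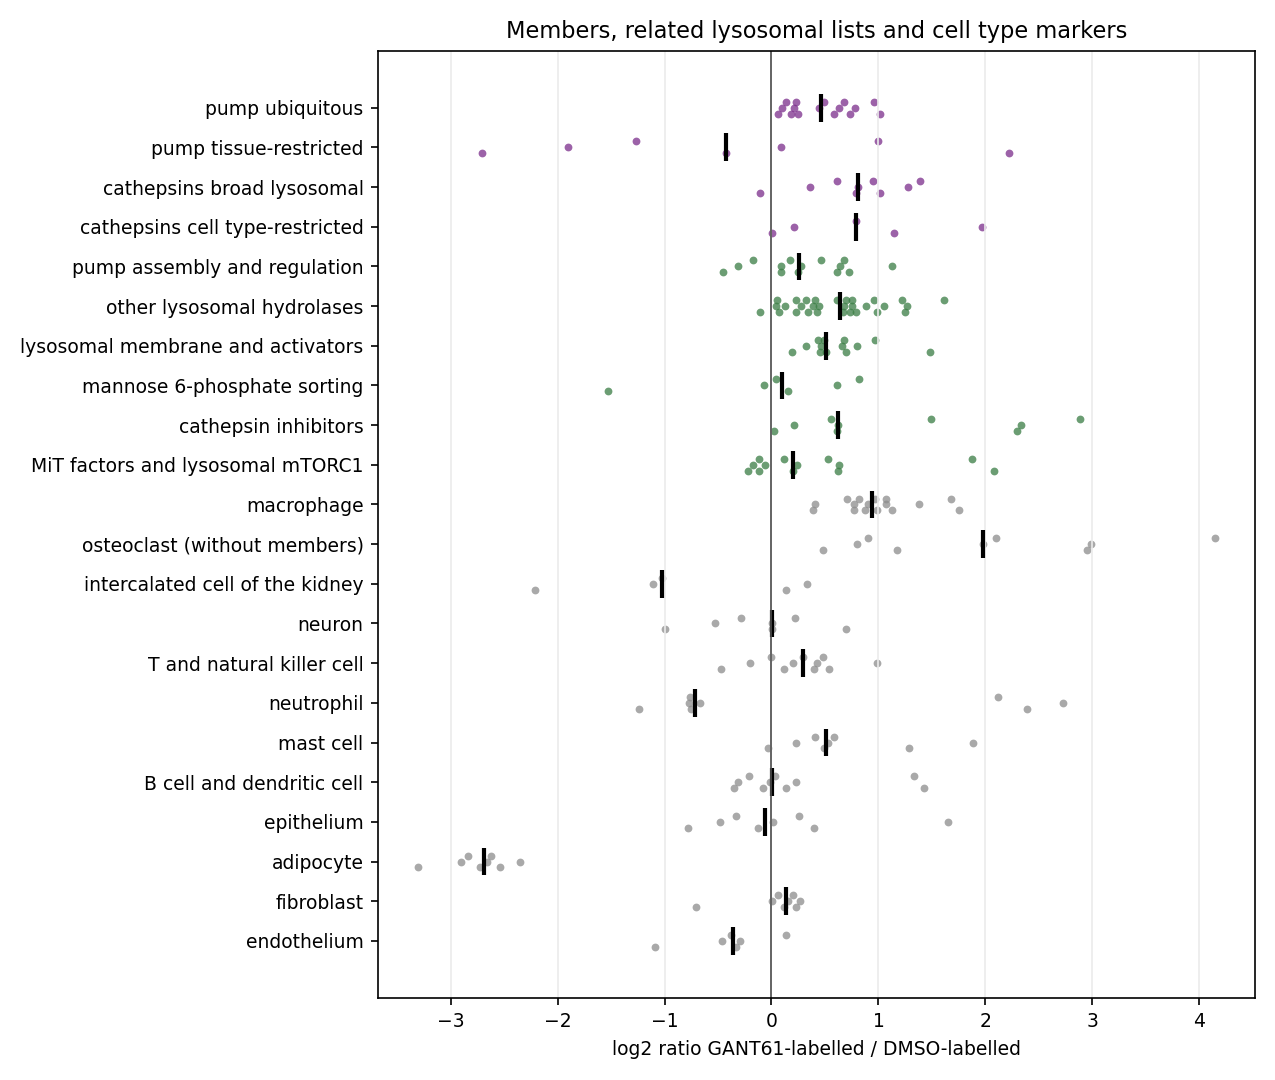
Log2 ratio of each gene (points) and the median of its list (black bar) for the pump and cathepsin groups (purple), related lysosomal lists (green) and cell type markers (grey), leaving out genes with 3 reads or fewer in both libraries. Ubiquitous pump subunits have a median of 0.46 and a narrow range, tissue-restricted isoforms spread from -2.71 to 2.23, and macrophage markers have a median of 0.94.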

How the data were processed

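Messenger RNA of 2 libraries, 1 per group, was analysed. The authors deposited estimated counts of reads per gene and, in a second table, RPKM values. The submitters' processing notes name the builds hg19 and mm10 and the tools HISAT2, STAR, SAMtools, Partek and cutadapt, with no role; versions, counter, annotation and strand setting are not given in the sources used here. Of the expected counts of all 20003 genes, zeros included, 29.8% (DMSO) and 29.5% (GANT61) had a decimal part of any size, so reads may have been split between copies; they were rounded first. Columns were tied to libraries by the treatment in their names, since their numbers do not match the titles.

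Counts were scaled by TMM in edgeR 4.0.16 (R 4.3.3). Ratios used a prior count of 0.5, with 95% Clopper-Pearson intervals (scipy 1.17.1), and isoform ratios exact conditional intervals. PCR copies of a molecule cannot be told from new molecules here, so intervals reflect counting error alone. With 1 library per group there is no test and no p-value. The script was tested on simulated data. Medians leave out genes with 3 or fewer reads in both libraries. Positions are from GENCODE M21 (mm10) and promoter windows from RefSeq (GRCm38.p6). Figures used matplotlib 3.10.9 (Python 3.11.15).

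The members, lists and rules were chosen with earlier results of these data known. Every member is accounted for; of each related list, up to 3 called genes with the most extreme ratios at a mean of 5 CPM or more are named. Calcr, Map2, Elane and Mpo, and the intercalated cell markers, were named after their values were seen. So were the named epithelial, B cell and dendritic cell markers, and the other named neutrophil and osteoclast markers. Alternatives were DESeq2 1.42.0 size factors, total counts, a prior count of 2, the deposited RPKM with a pseudocount of 0.1, floors of 0 and 5 CPM, a fold of 2, other isoform classes and, added after seeing the data, removal of the trend in gene length.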

Additional observations from a re-analysis of the deposited data

How the results depend on the processing

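The number of libraries, 1 per group, is the main limit. No replicate could be left out, and the spread between cultures is unknown. No paired analysis was possible because each group has 1 library. With a fold threshold of 2, 2 pump members were called higher in place of 8, and 5 cathepsins in place of 10. The median log2 ratio of the tissue-restricted isoforms, -0.42, rests on few genes and leaves out Tcirg1. It was -0.17 over members with a mean of at least 1 CPM. With Atp6v0e2 as ubiquitous and Atp6v0a1 as tissue-restricted it turned to 0.086, and the median of the ubiquitous subunits was 0.34 in place of 0.46, through the change of members. With the length trend removed, an alternative chosen after seeing the data, the cathepsin median was 0.89 in place of 0.80, and Atp6v0c was called higher at 1.58. Scaling by total counts removed the calls of Ctsd (1.48) and Atp6ap1 (1.499). Without the floor on low levels Atp6v1g3 was called lower. DESeq2 size factors and a prior count of 2 left all 38 member ratios within their counting intervals, and the deposited RPKM 37 of 38. Total counts moved 15 of 38 out of them and the length correction 19, and no called member turned direction under these 5. Low reads limit Atp6v1g3, Atp6v1g2 and Ctsg.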

Other observations

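Factors and sensors on the lysosome's surface, which belong to no comparison above, differed gene by gene. Of 13 MiT-family factors and lysosomal mTORC1 genes, 4 were called higher and 0 lower, beside 14.1% and 10.3% of all genes. Their median log2 ratio was 0.20. Tfec, the MiT factor largely restricted to the myeloid lineage, was at 14.8 CPM in the DMSO library and 62.5 CPM in the GANT61 library (ratio 4.22, 3.93 to 4.54). Rragd, a Rag GTPase and known MiT target, had 145 and 484 reads (ratio 3.67, 3.05 to 4.46). Mitf had a ratio of 1.55 (1.43 to 1.68), and the fourth was Tfe3, at 60.9 and 93.9 CPM (ratio 1.54, 1.48 to 1.61). Tfeb, the best known of these for lysosomal genes, was not called, at 22.0 and 20.3 CPM (ratio 0.922, 0.851 to 0.997). Tfe3 and Tfeb were named after their values were seen. Of the Ragulator subunits Lamtor1 to Lamtor5, none was called.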
